A study of Mus musculus with 8 samples.

Results

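The genes described here are 10 genes of sodium and water transport in the colon: Scnn1a, Scnn1b, Scnn1g, Atp12a, Fxyd4, Aqp8, Aqp4, Nr3c2, Hsd11b2 and Sgk1. They were taken by name from the 19505 genes measured, all 10 were present, and each had a single value per array. The names were selected on earlier results of these same arrays, in which log2 expression by group and by mouse was known (Scnn1g among it), so the differences between groups and mice are a description and support nothing by themselves. RNA came from whole colon tissue of 8 mice with acute graft-versus-host disease, a condition in which transplanted donor T cells attack the tissues of the host. All 8 were wild-type BALB/c recipients that were lethally irradiated and received C57BL/6 bone marrow and T cells on day 0. Of these, 4 received PBS by mouth and 4 received hBD-2, human beta-defensin 2, an antimicrobial peptide of epithelial cells, at 1.2 mg/kg. Treatment ran from day 0 to day 7, and the colon was taken on day 7. The comparison asks how hBD-2 affects expression in the diseased colon. Sex and age of the mice, and which stretch of the colon was used, are not given in the labels.

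In the distal colon, sodium enters surface cells from the lumen through the epithelial sodium channel ENaC and leaves them through the sodium pump, and water follows through cells and between them. Aldosterone raises this uptake. It binds the mineralocorticoid receptor, which the enzyme encoded by Hsd11b2 shields from glucocorticoids, and the kinase Sgk1 then keeps more channels at the membrane. ENaC is built of the alpha, beta and gamma subunits encoded by Scnn1a, Scnn1b and Scnn1g, and in the colon aldosterone is known to raise mainly the beta and gamma subunits. Loss of sodium and water uptake is one route to diarrhoea in inflamed intestine.

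Promoter sequence is shown for Scnn1b and Scnn1g because these genes are direct neighbours on mouse chromosome 7, with 0 protein-coding genes between them, and Scnn1g was the gene nearest to Scnn1b in profile over the arrays. Aqp8 lies on the same chromosome beyond 17 other protein-coding genes and was not among the 5 profiles nearest to either. Its highest array was PBS 3, followed by hBD-2 1 and hBD-2 3. The sequences are from RefSeq, build GRCm38.p6, on the + strand, and end at the first annotated start of the gene. For Scnn1g this start lies inside the 250-base RefSeq window, so 191 bases are shown for it and 250 for the others. Capitals mark CG dinucleotides, of which there are 7, 14 and 5.
Scnn1b, chr7:121864788-121865037: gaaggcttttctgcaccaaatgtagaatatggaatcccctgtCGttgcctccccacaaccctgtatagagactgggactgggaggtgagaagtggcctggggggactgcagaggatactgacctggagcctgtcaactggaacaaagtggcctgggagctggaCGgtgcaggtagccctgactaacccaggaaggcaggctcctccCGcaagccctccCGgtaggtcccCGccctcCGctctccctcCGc
Scnn1g, chr7:121734229-121734419: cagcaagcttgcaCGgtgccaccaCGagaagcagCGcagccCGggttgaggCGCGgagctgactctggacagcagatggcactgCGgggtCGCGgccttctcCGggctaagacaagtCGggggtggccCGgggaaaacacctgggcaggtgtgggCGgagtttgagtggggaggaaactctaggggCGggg
Aqp8, chr7:123462044-123462293: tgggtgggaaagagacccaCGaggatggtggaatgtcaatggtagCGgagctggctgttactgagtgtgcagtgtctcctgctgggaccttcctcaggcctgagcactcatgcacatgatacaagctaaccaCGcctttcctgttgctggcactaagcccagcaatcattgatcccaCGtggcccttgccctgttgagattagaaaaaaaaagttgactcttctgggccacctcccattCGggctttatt
Guanine and cytosine made up 60.8% of the Scnn1b window and 65.2% of the whole 250-base Scnn1g window (67.0% of the stretch shown), against 52.4% for Aqp8 and a median of 52.4% over the 32851 RefSeq promoter windows of 250 bases. The 11 windows found for 6 members (4 members had none) were searched on both strands for the palindrome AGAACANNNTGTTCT, to which corticosteroid receptors bind, and for its arm TGTTCT, which overlaps the palindrome. The palindrome stood in 1 of the 6 Sgk1 windows and in 3 of all 32851 windows (0.00913%). That Sgk1 window, chr10:21993640-21993889, precedes a later annotated start of the gene, not its first, since another Sgk1 window lies at chr10:21881934-21882183. The palindrome was at positions -189 to -175 from this later start. It is shown with 7 bases on either side, with both arms in capitals.
Sgk1, chr10:21993694-21993722: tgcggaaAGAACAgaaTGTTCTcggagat
The single arm was found in 3 of the Sgk1 windows and in 16.1% of all windows. CCAATAAA and CTCGTAAA, letters bound by Hoxb13, were present in 1.02% and 0.110% of all windows. In the windows of Scnn1b, Scnn1g, Fxyd4, Aqp8 and Nr3c2 none of the 4 searches found a match, which says only that these letters are not in these bases.

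A principal component analysis of all genes separated hBD-2 1 and hBD-2 3, at 25.2 and 25.4 on the first component, from the remaining 6 arrays at -14.9 to -2.45. Array medians ran from 6.77 to 6.82 log2 units. Values are deposited log2 expression units throughout, a difference of 1 unit is a doubling, and levels are not compared between genes. Precision is limited by there being 4 arrays a group. In whole tissue, fewer cells of a type and less RNA per cell cannot be told apart. Pan-epithelial markers, such as Epcam and Cdh1, averaged 11.17 to 11.27 over 10 genes in PBS mice and 11.17 to 11.25 in hBD-2 mice, a narrow range over the 8 arrays of the labelled tissue. Single genes of this list moved apart from that mean. In 2 of them, Krt18 and Cldn4, hBD-2 1 and hBD-2 3 were both below the other 6 arrays, and in 0 both above (8.06% and 6.41% of all genes). For Cldn4 every hBD-2 mouse was below every PBS mouse, with a difference of -0.19.

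All 10 members had a higher mean in the hBD-2 mice than in the PBS mice, a direction shared by 53.5% of all genes. None of the 10 passed an adjusted p of 0.05 (limma, Benjamini-Hochberg over all 19505 genes), where 8 genes, 0.0410% of those tested, did. In none of the 10 did the groups separate, against 6.41% of all genes. At an unadjusted p under 0.05 there were 2 members, Fxyd4 and Nr3c2, where 11.8% of all genes lie. This number depended on single arrays: it was 0 without PBS 1 or without hBD-2 1 (8.95% and 10.03% of all genes) and 5 without hBD-2 4 (12.4%), and it was 5 with array weights (15.3%). The median difference, hBD-2 minus PBS, was 0.40 log2 units over the members and 0.012 over all genes. In 8 members hBD-2 1 and hBD-2 3 both lay above all other 6 arrays, as they did in 6.41% of all genes; this counts 2 mice, and the members were chosen with these arrays known. When these 2 arrays were left out, the median difference of the members was -0.090 (0.020 over all genes) and 7 of 10 members changed sign, against 18.1% of all genes.

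**Figure D1:**
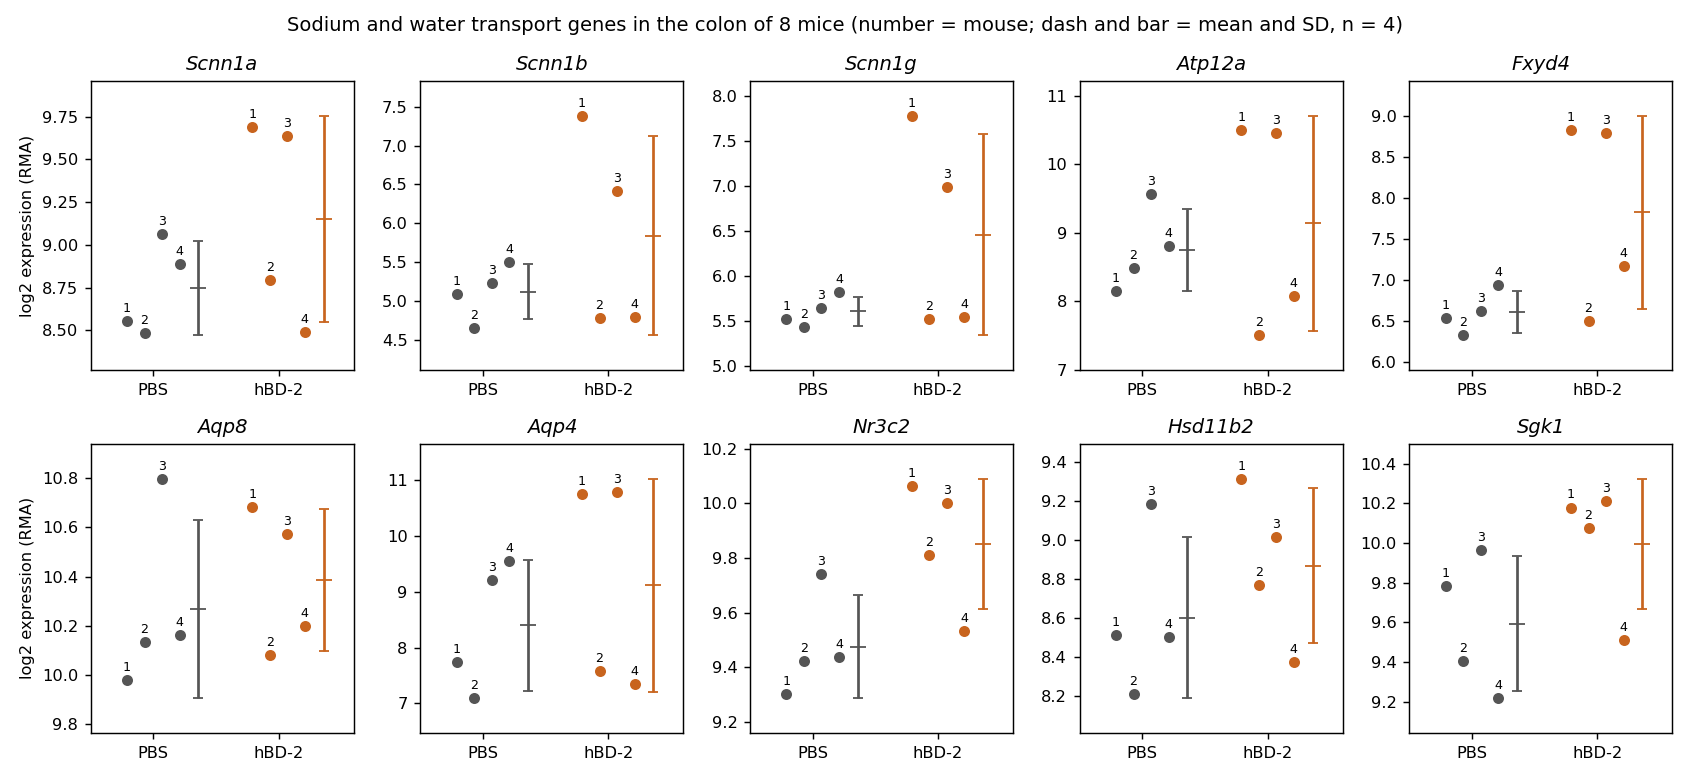
Log2 expression of the 10 genes in each mouse, with PBS in grey and hBD-2 in orange; digits are mouse numbers, and the dash and bar are mean and SD of 4 mice. Mice hBD-2 1 and hBD-2 3 sit highest in 8 panels, while in the Aqp8 panel PBS 3 is the highest mouse at 10.80.

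Among the channel subunits, Scnn1b, the beta subunit, measured 5.09, 4.66, 5.23 and 5.50 in PBS mice 1 to 4 and 7.38, 4.78, 6.42 and 4.79 in hBD-2 mice 1 to 4. Mice hBD-2 1 and 3 were above every other mouse, by at least 0.91 log2 units (1.88-fold), whereas hBD-2 2 and hBD-2 4 lay inside the PBS range. The means were 5.12 ± 0.354 and 5.84 ± 1.28 (SD, n = 4 each), a difference of 0.72 (SE 0.51, limma adjusted p = 0.608).

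Scnn1g, the gamma subunit, measured 5.53, 5.44, 5.64 and 5.82 in PBS mice and 7.78, 5.52, 6.99 and 5.55 in hBD-2 mice. The same 2 mice were high, hBD-2 1 above hBD-2 3 as for Scnn1b, and the other hBD-2 mice differed from each other by only hundredths of a unit. Its means of 5.61 ± 0.165 and 6.46 ± 1.12 (SD, n = 4 each) differed by 0.85 (SE 0.44, limma adjusted p = 0.478).

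Scnn1a, the alpha subunit, which many sodium-transporting epithelia make in excess, measured 8.56, 8.48, 9.06 and 8.89 in PBS mice and 9.69, 8.79, 9.63 and 8.49 in hBD-2 mice. Here hBD-2 1 and hBD-2 3 lay close together, 0.57 above the next mouse (1.48-fold), a narrower gap than for the beta and gamma subunits. The difference was 0.40 (SE 0.26, limma adjusted p = 0.573). Without the 2 arrays the differences were -0.33 for Scnn1b (95% interval -0.78 to 0.12), -0.073 for Scnn1g (-0.34 to 0.20) and -0.11 for Scnn1a (-0.50 to 0.29).

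Fxyd4, also known as corticosteroid hormone-induced factor (CHIF), a small protein that tunes the sodium pump and is induced by aldosterone in the colon, had the largest difference of the 10. It measured 6.54, 6.32, 6.62 and 6.94 in PBS mice and 8.84, 6.50, 8.80 and 7.17 in hBD-2 mice. Arrays hBD-2 1 and hBD-2 3 were at least 3.10-fold above all others, and hBD-2 4 lay just above the PBS range while hBD-2 2 lay within it. PBS mice averaged 6.61 ± 0.256 and hBD-2 mice 7.83 ± 1.18 (SD, n = 4 each), a difference of 1.22 (SE 0.47, 95% interval 0.18 to 2.26, limma adjusted p = 0.350). Without the 2 arrays it stood at 0.23 (95% interval -0.24 to 0.70).

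Atp12a, the catalytic subunit of the colonic proton-potassium pump, which takes up potassium in the distal colon, measured 8.15, 8.48, 9.56 and 8.81 in PBS mice and 10.50, 7.50, 10.45 and 8.08 in hBD-2 mice. The hBD-2 group held both the 2 highest and the 2 lowest mice of all 8, a 7.97-fold range against 2.66-fold in PBS. The difference of 0.39 (SE 0.65, limma adjusted p = 0.847) became -0.070 without hBD-2 1 and -0.054 without hBD-2 3. Without both it was -0.96 (95% interval -1.72 to -0.19, unadjusted p = 0.0200, limma adjusted p = 0.293), and it was then the only member with an unadjusted p under 0.05, where 12.8% of all genes had one and none passed adjustment.

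The water channels differed from each other. Aqp4, a basolateral water channel, measured 7.74, 7.10, 9.21 and 9.54 in PBS mice and 10.75, 7.58, 10.79 and 7.35 in hBD-2 mice. Each group thus held a low and a high pair: PBS 3 and PBS 4 were over 1 unit above PBS 1 and PBS 2, and hBD-2 1 and hBD-2 3 were about 3 units above hBD-2 2 and hBD-2 4. Its difference was 0.72 (SE 0.86, limma adjusted p = 0.777), and -0.93 without hBD-2 1 and hBD-2 3 (95% interval -2.29 to 0.42).

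Aqp8, the apical water channel of surface colonocytes, measured 9.98, 10.13, 10.80 and 10.16 in PBS mice and 10.68, 10.08, 10.57 and 10.20 in hBD-2 mice. PBS 3 was the highest mouse of all, followed by hBD-2 1 and hBD-2 3, and the groups overlapped nearly completely. The difference was 0.12 (SE 0.19, 95% interval -0.30 to 0.53, limma adjusted p = 0.840), an interval that leaves room for a change of up to 0.53 units upward or 0.30 downward. It stood at 0.29 without PBS 3 and at -0.13 without hBD-2 1 and hBD-2 3.

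Among the genes of the aldosterone response, Nr3c2, which encodes the mineralocorticoid receptor, measured 9.30, 9.42, 9.74 and 9.44 in PBS mice and 10.06, 9.81, 10.001 and 9.53 in hBD-2 mice. Of the hBD-2 mice 3 lay above every PBS mouse, and hBD-2 4 lay below PBS 3 only. The difference was 0.38 (SE 0.13, 95% interval 0.083 to 0.67, limma adjusted p = 0.304), the lowest p of the 10, and it was 0.20 without hBD-2 1 and hBD-2 3 (95% interval -0.12 to 0.51).

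Sgk1 had a similar arrangement, with 9.79, 9.41, 9.96 and 9.22 in PBS mice and 10.18, 10.08, 10.21 and 9.51 in hBD-2 mice. Again 3 hBD-2 mice, hBD-2 2 among them, were above all PBS mice, and hBD-2 4 was within the PBS range. Its difference of 0.40 (SE 0.19, limma adjusted p = 0.448) was 0.20 without the 2 arrays. Sgk1 is also induced by glucocorticoids and by osmotic and other stress.

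Hsd11b2, the enzyme that inactivates glucocorticoids in aldosterone target cells, measured 8.51, 8.21, 9.18 and 8.50 in PBS mice and 9.31, 8.77, 9.02 and 8.38 in hBD-2 mice. PBS 3 ranked second of all 8 mice, above hBD-2 3, so the groups were interleaved. The difference was 0.27 (SE 0.23, limma adjusted p = 0.673) and -0.031 without hBD-2 1 and hBD-2 3.

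**Figure D2:**
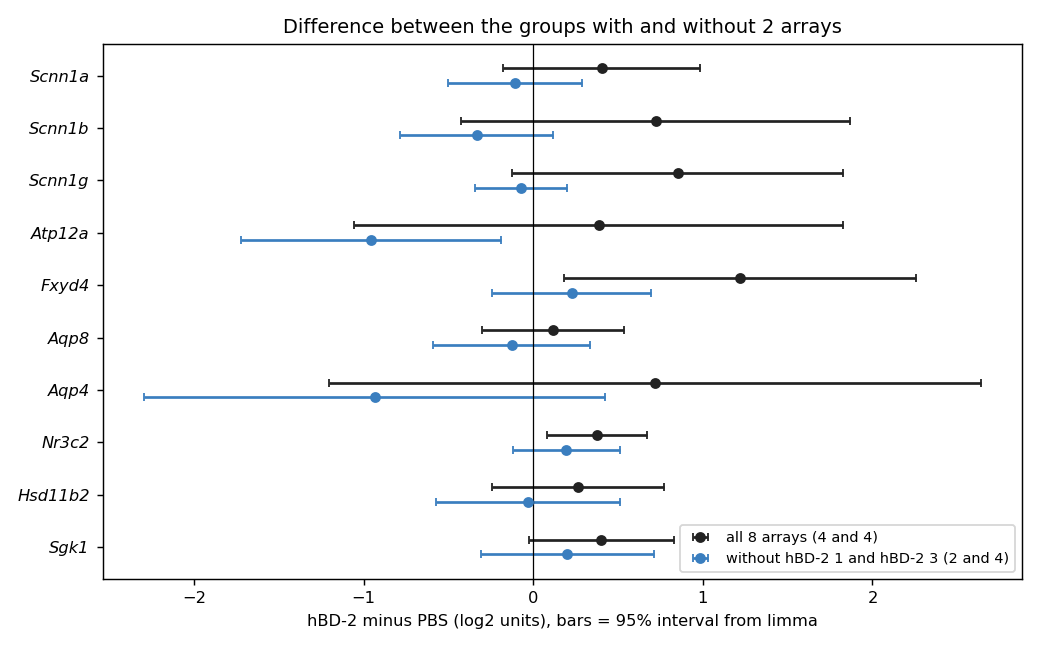
Difference between the group means, hBD-2 minus PBS, in log2 units for each gene, with 95% intervals from limma; black uses all 8 arrays and blue leaves out hBD-2 1 and hBD-2 3. The black points all lie above 0, from 0.12 to 1.22, and 7 of the 10 blue points lie below it.

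The spread within a group sorted the 10 genes into those in which the hBD-2 mice varied far more and those in which they did not. The SD over 4 hBD-2 mice was 6.75 times that over 4 PBS mice for Scnn1g, 4.60 times for Fxyd4, 3.61 times for Scnn1b, 2.60 times for Atp12a and 2.18 times for Scnn1a. The hBD-2 SD was the larger in 7 members, as in 56.6% of all genes, and a ratio of at least 2 was present in 19.5% of all genes. Aqp4 at 1.63 and Nr3c2 at 1.27 had smaller ratios, and for Sgk1, Hsd11b2 and Aqp8 (0.967, 0.964 and 0.798) the PBS mice varied at least as much. The median ratio was 1.91 over the members and 1.12 over all genes. With 4 mice a group and members chosen with these values known, the ratios were not tested. Scnn1g and Scnn1b were also dim: only 37.6% and 30.7% of all genes had a mean as low or lower. The part of this low level in their small PBS SD and large ratios was not tested.

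In PBS mice alone the members also varied more than most genes, with a median SD of 0.348 against 0.125 over all genes. Aqp4 had an SD of 1.17 there, reached by 0.0256% of all genes, and Atp12a had 0.603, reached by 0.195%. At the other end, the PBS SD of Scnn1g, 0.165, was reached or passed by 31.0% of all genes. In hBD-2 mice the SD of Aqp4 was 1.91 and that of Atp12a 1.57, reached by 0.0615% and 0.0974% of all genes, and that of Scnn1b 1.28, by 0.179%. Scnn1g, a dim gene, thus had an unremarkable spread among PBS mice and one of the widest among hBD-2 mice. Aqp4 and Atp12a varied widely in both groups.

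**Figure D3:**
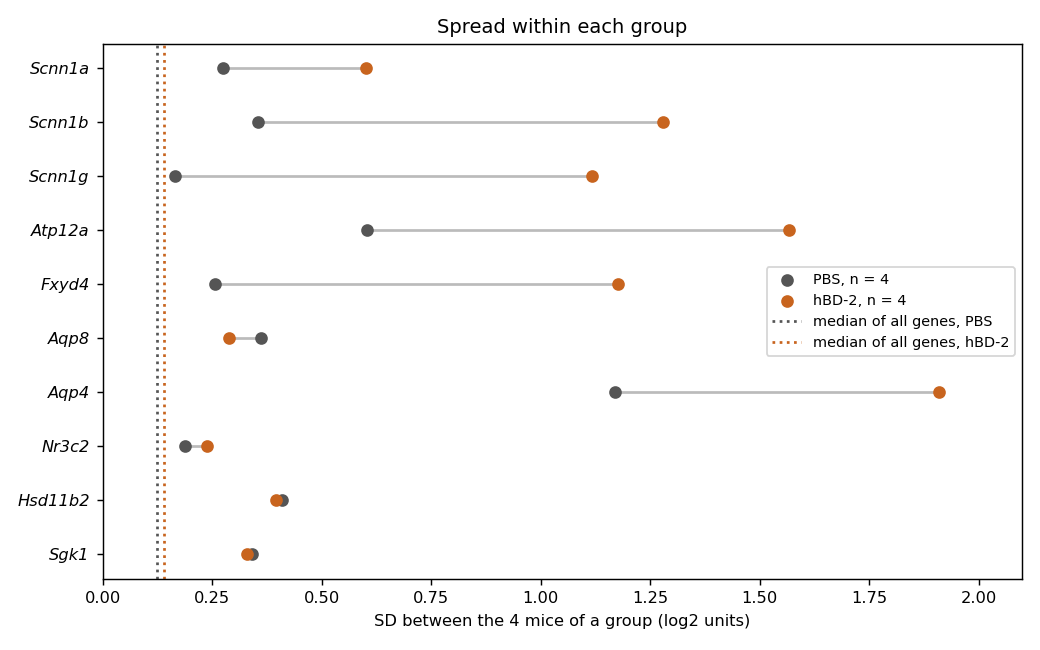
SD of each gene between the 4 PBS mice (grey) and between the 4 hBD-2 mice (orange), in log2 units; dotted lines are the medians over all genes, 0.125 and 0.139. The longest gaps between the points belong to Scnn1g, Atp12a, Scnn1b and Fxyd4, and for Aqp8, Hsd11b2 and Sgk1 the points lie close together.

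Among the PBS mice the order of the mice was partly shared between members. PBS 3 was the highest PBS mouse in 6 of the 10 (Scnn1a, Atp12a, Aqp8, Nr3c2, Hsd11b2 and Sgk1), as it was in 26.8% of all genes, and PBS 4 was highest in the others. PBS 2 was lowest in 6, a count for which the share over all genes was not taken. Mice hBD-2 2 and hBD-2 4 lay within the PBS range in 7 and 8 members. The exceptions were Atp12a, in which both lay below all PBS mice, Nr3c2 and Sgk1, in which hBD-2 2 lay above, and Fxyd4, in which hBD-2 4 did.

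Of the 18 colon position genes measured none passed adjustment in limma, and hBD-2 1 and hBD-2 3 stood out upward in some of them, among which are Hoxb13 and Insl5. Hoxb13 and Insl5 are named because they differed most in this list between these arrays and the other 6. Hoxb13, a homeobox gene of the posterior body axis, measured 4.73, 5.14, 7.22 and 6.76 in PBS mice and 9.06, 5.11, 9.32 and 5.22 in hBD-2 mice. Insl5, a hormone of distal colon endocrine cells, measured 6.90, 6.62, 8.71 and 8.21 in PBS mice and 10.14, 6.38, 9.96 and 6.53 in hBD-2 mice. The mice fell in these genes as they did in Aqp4: a pair at the top in hBD-2, a middle pair of PBS 3 and PBS 4, and 4 low mice. Scnn1b and Scnn1g shared the top pair but set PBS 3 and PBS 4 apart by far less. Over the whole position list, with 18 of 20 genes measured, hBD-2 1 and hBD-2 3 were both above the other 6 arrays in 4 genes and both below in 3 (6.41% and 8.06% of all genes), and its mean level ran from 6.50 to 6.59 over PBS mice and from 6.59 to 6.93 over hBD-2 mice. The part of colon position in the differences above was not tested.

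In none of the marker lists of other tissues and cell types did hBD-2 1 and hBD-2 3 both average above the remaining arrays. Squamous genes of the anal canal, such as Krt5 and Krt14, averaged 5.30 in hBD-2 1, 5.28 in hBD-2 3 and 5.14 to 5.42 in the remaining arrays (11 of 12 measured), and kidney tubule genes averaged 5.41 and 5.28 against 5.17 to 5.79 (5 of 5). Urothelial genes averaged 5.96 and 5.66 against 5.35 to 5.78 (5 of 5). Of these 3 lists 1 of 11, 0 of 5 and 0 of 5 genes lay above the median of all genes. Surface colonocyte genes averaged 10.98 to 11.28 in PBS and 11.21 to 11.38 in hBD-2 mice (11 of 12 measured). Within that list hBD-2 1 and hBD-2 3 were both above the other 6 arrays in 4 genes and both below in 2 (6.41% and 8.06% of all genes). The 2 genes that differed most between these arrays and the other 6 are given. They were highest in the phosphate transporter Slc20a1 (10.002 and 10.05, with 8.82 to 9.54 elsewhere). In Tmigd1 hBD-2 1 and hBD-2 3 were lowest (9.05 and 9.260, with 9.263 to 10.91 elsewhere). Enteric glia genes averaged 5.67 to 5.94 in PBS and 5.71 to 5.81 in hBD-2 mice (4 of 5 measured). Leukocyte genes averaged 8.24 to 8.42 in PBS and 7.80 to 8.09 in hBD-2 mice (9 of 10 measured), and smooth muscle genes 10.56 to 10.82 and 10.17 to 10.75 (8 of 8), with hBD-2 3 the lowest. All 9 leukocyte genes had a lower mean in hBD-2 mice (median -0.32, and -0.39 without hBD-2 1 and hBD-2 3), 5 of them at an unadjusted p under 0.05 and 0 past adjustment in limma, against 5.98% of all genes that were lower at that unadjusted p. The part of leukocyte and muscle content in the members' differences was not tested.

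The genes around the members were described from 6 lists of 74 genes, of which 66 were measured. None passed the adjusted threshold in either direction in limma, 8 were higher and 3 lower at an unadjusted p under 0.05, and the median difference was 0.058. These shares compare with 5.85% and 5.98% of all genes. In 10 of the 66, hBD-2 1 and hBD-2 3 were both above the other arrays, and in 5 both below (6.41% and 8.06% of all genes). The groups did not overlap in Usp2, Hsd11b1, Per1, Slc26a3 and Kcne3, against 6.41% of all genes. Genes named below had the lowest p of their list, a choice that favours groups without overlap.

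Of 17 genes of ENaC processing and regulation, 11 had a higher and 6 a lower mean in hBD-2 mice (median 0.079). The deubiquitinase Usp2, which is known to act on ENaC and on the mineralocorticoid receptor, measured 6.91, 6.98, 7.03 and 7.11 in PBS mice and 7.71, 7.30, 7.56 and 7.33 in hBD-2 mice. Its groups did not overlap, so hBD-2 2 and hBD-2 4 were also above all PBS mice. The difference was 0.46 (SE 0.10, limma adjusted p = 0.138), and 0.30 without the 2 arrays. Sgk3, a kinase related to Sgk1, stood at -0.35 (SE 0.17, limma adjusted p = 0.451) and at -0.036 without them.

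Of 15 corticosteroid response genes, 6 had a higher and 9 a lower mean (median -0.013). Hsd11b1, which regenerates active glucocorticoid and so acts against Hsd11b2, measured 9.15, 9.29, 9.02 and 9.01 in PBS mice and 8.62, 8.81, 8.69 and 8.79 in hBD-2 mice. Every hBD-2 mouse was below every PBS mouse, a difference of -0.39 (SE 0.087, limma adjusted p = 0.141), and -0.31 without the 2 arrays. The clock gene Per1, which aldosterone induces, stood at 0.27 (SE 0.092, limma adjusted p = 0.296), with no overlap, and at 0.15 without them.

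Among 8 measured genes of the sodium pump and its FXYD partners, Fxyd1 was at -0.32 and Fxyd3 at 0.34 (limma adjusted p = 0.409 and 0.413), and 4 had a higher and 4 a lower mean. All 9 other aquaporins had a higher mean in hBD-2 mice, as 53.5% of all genes did. Their median difference was 0.18, and 0.30 without the 2 arrays (0.012 and 0.020 over all genes). Aqp7 stood at 0.21 and Aqp3 at 0.24 (limma adjusted p = 0.369 and 0.393). In none of the 9 were hBD-2 1 and hBD-2 3 both the highest arrays, in contrast to Aqp4. Most of these aquaporins gave low values, and 2 of the 9 lay above the median of all genes. Other lists of mostly dim genes also leaned to higher means in hBD-2 mice. These were 5 of 5 kidney tubule (Aqp2 among them), 10 of 11 anal squamous and 4 of 5 urothelial genes, with 2 of 4 enteric glia genes. The part of low signal in these directions was not tested.

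For electroneutral sodium uptake, in which the exchanger encoded by Slc9a3 works beside the chloride-bicarbonate exchanger encoded by Slc26a3, the median difference over 9 genes was 0.030. Slc26a3 measured 11.66, 11.64, 11.79 and 11.45 in PBS mice and 12.15, 11.83, 12.09 and 11.79 in hBD-2 mice, with all hBD-2 mice above all PBS mice. Its difference was 0.33 (SE 0.11, limma adjusted p = 0.266), and 0.18 without the 2 arrays. The scaffold gene Slc9a3r2 was at -0.22 (SE 0.085, limma adjusted p = 0.347).

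Among 8 potassium channel and gastric pump genes (median 0.13), Kcne3, a channel subunit that supports chloride secretion in crypt cells, measured 9.37, 9.47, 9.43 and 9.44 in PBS mice and 9.95, 9.91, 10.14 and 9.62 in hBD-2 mice. The groups did not overlap, and the difference was 0.48 (SE 0.10, limma adjusted p = 0.133), with 0.34 left when the 2 arrays were set aside. Atp4a, the gastric relative of Atp12a, stood at 0.23 (SE 0.14, limma adjusted p = 0.533).

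**Figure D4:**
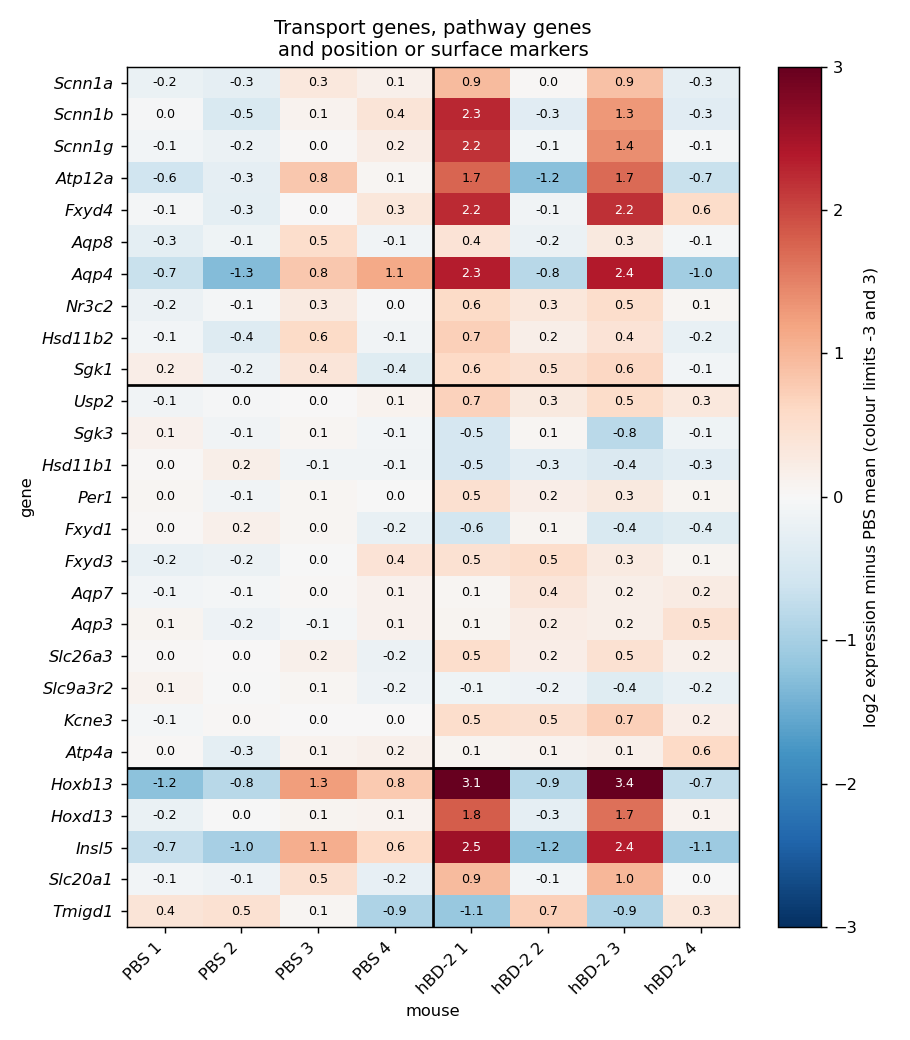
Log2 expression of each gene in each mouse minus the gene's PBS mean, printed in every cell, with the 10 members on top, pathway genes in the middle block and 5 position or surface genes below. Columns hBD-2 1 and hBD-2 3 are red for the channel subunits, Atp12a, Fxyd4 and Aqp4 and for Hoxb13 and Insl5, while Usp2, Kcne3 and Slc26a3 are above the PBS mean in all 4 hBD-2 columns.

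Profiles most like a member were ranked by Pearson's r over the 8 arrays among 1249 other genes with an SD of at least 0.3 log2 units. Since hBD-2 1 and hBD-2 3 set much of r, its value over the other 6 arrays is given with it, as a description. For Scnn1b the nearest was Scnn1g (0.983, and 0.921 over 6 arrays), followed by Plxnb1 (0.972 and 0.777), Pla2g4f (0.966 and 0.883), Spink1 (0.959 and 0.873) and Epb41l4a (0.958 and 0.910). For Scnn1g the nearest were Ccnjl (0.987 and 0.415), the sugar-phosphate transporter Slc37a2 (0.986 and 0.307), Scnn1b, Pla2g4f (0.980 and 0.845) and the glycosyltransferase B3gnt7 (0.978 and 0.473). Scnn1b and Scnn1g thus kept their likeness in the other 6 arrays, as Pla2g4f did with both and Spink1 and Epb41l4a did with Scnn1b. Ccnjl, Slc37a2 and B3gnt7 were like Scnn1g mainly through the pair. Scnn1g, a dim gene, spanned only 5.44 to 5.82 in those 6 arrays.

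For Atp12a the nearest profiles included hormone genes of distal colon endocrine cells: Insl5 (0.972, and 0.904 over 6 arrays), Gcg, which encodes proglucagon (0.968 and 0.897), and Pyy, which encodes peptide YY (0.962 and 0.904). The protein kinase A subunit Prkacb (0.970 and 0.955) and the death ligand Tnfsf10 (0.960 and 0.931) were the others. For Aqp8 the nearest were Chad (0.915 and 0.888), Hepacam2 (0.875 and 0.866), the endocrine granule protein Chga (0.871 and 0.952), the actin-severing protein Scin (0.866 and 0.867) and Rasgef1b (0.861 and 0.812). No gene appeared in the nearest 5 of both Aqp8 and any of the other 3 members ranked.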

How the data were processed

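Whole colon RNA of 8 mice was measured with 1 Affymetrix array per mouse; group and replicate were read from the sample titles. The deposited log2 values were made by the authors with the R package oligo and RMA, per the submitters' processing notes (versions and build are not given in the sources used here). RMA equalises the array distributions, which hides overall shifts, and gives no detection call, so dim genes could not be set apart by signal over background. Of 22203 probe sets, 19572 carried 1 gene symbol and 2631 none; the probe set with the highest mean was kept for genes with several (55 genes), leaving 19505 genes. Every member had 1 probe set. Replicate arrays are separate mice by their titles, and no arrays were identical.

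Differences were fitted with lmFit and eBayes of limma 3.58.1 (R 4.3.3) over all 19505 genes, two-sided, with Benjamini-Hochberg adjustment and a threshold of 0.05; the pipeline was tested on simulated data. The labels name no test. Members, gene lists, arrays left out and motifs were chosen with earlier results of these data known. Named beside the members were the 2 genes of lowest p in each pathway list and 2 genes per marker list. The 5 profiles nearest to Scnn1b, Scnn1g, Aqp8 and Atp12a were also named (gene models without a proper name skipped). The 2 marker genes differed most, up or down, between the 2 hBD-2 arrays set apart on the first component and the remaining arrays. They were picked for that contrast and do not stand for their lists. Hoxd13, drawn only in a plot, was chosen after its values were seen. Alternatives covered the prior, filters on the lowest 25% and 50% of probe sets, centring, quantile normalization, probe sets, array weights, the replicate block, leaving out arrays and a threshold of 0.1. Promoters were matched by symbol (6 of 10 members, RefSeq GRCm38.p6).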

Additional observations from a re-analysis of the deposited data

Results flagged for a closer look

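Single values standing far from the other 3 of their group were looked for in 80 groups of 4 mice (40 genes: the members, the pathway genes and the marker genes named by rule), where chance gives about 1 in 20 groups. There were 5, none of them a member. Atp4a was 6.85 in hBD-2 4, against 6.33 to 6.39 in the other hBD-2 mice. Cldn4, a tight junction gene, was 10.17 in PBS 3, against 10.01 to 10.03. Avpr2, the vasopressin receptor of the collecting duct, was 5.004 in hBD-2 4, against 4.36 to 4.46. The smooth muscle genes Myh11 and Lmod1 were 9.99 and 7.73 in hBD-2 3, against 10.56 to 10.64 and 8.10 to 8.16.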

How the results depend on the processing

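No member passed in any of the alternatives run, with a lowest adjusted p of 0.120 in limma (Fxyd4 without hBD-2 2). Of 178 member values 169 kept their direction and 9 reversed. Many of the 178 could not reverse. The prior, the filters, averaged or all probe sets and the replicate block leave a member's difference unchanged and alter only its p. Without arrays hBD-2 1 and hBD-2 3, 7 reversed: Scnn1a to -0.11, Scnn1b to -0.33, Scnn1g to -0.073, Atp12a to -0.96, Aqp8 to -0.13, Aqp4 to -0.93 and Hsd11b2 to -0.031. Atp12a also reversed without hBD-2 1 (-0.070) and without hBD-2 3 (-0.054). Leaving out single arrays moved Scnn1a between 0.22 and 0.62, Scnn1b between 0.21 and 1.07, Scnn1g between 0.41 and 1.17, Aqp4 between 0.16 and 1.31, Aqp8 between 0.016 and 0.29, Hsd11b2 between 0.12 and 0.46, Atp12a between -0.070 and 0.93 and Fxyd4 between 0.88 and 1.66. The low ends came without hBD-2 1 (Aqp4: hBD-2 3), and the high ends without hBD-2 2 (Scnn1b, Scnn1g, Atp12a, Fxyd4), hBD-2 4 (Scnn1a, Aqp4) or PBS 3 (Aqp8, Hsd11b2). Array weights gave 1.09 for Scnn1b, 0.79 for Atp12a, 1.35 for Aqp4 and 0.19 for Aqp8. Members at an unadjusted p under 0.05 in limma numbered 2 as reported (11.8% of all genes) and 5 with array weights (15.3%). There were 3 with the replicate block (13.2%) or repeated quantile normalization (12.0%), with Sgk1 added. The trend and robust prior gave 1 (11.7%), and leaving out single arrays gave 0 to 5 (8.60% to 14.2%). Of all genes 8 passed adjustment as reported, 91 with the trend and robust prior, 68 with array weights, 16 and 46 without the lowest 25% and 50% of probe sets, 4 with repeated quantile normalization, 5 with all probe sets, 81 at a threshold of 0.1 and 0 to 11 without single arrays. Pathway list genes past the threshold numbered 2 (Hsd11b1 and Kcne3, adjusted p = 0.0495 and 0.0298) with an intensity trend and robust prior in limma and 0 in the other settings. The replicate numbers are not stated to pair mice, and same-numbered arrays deviated together with correlations of -0.15, 0.14, 0.24 and 0.045 across genes; with the replicate block 0 members and 0 pathway genes passed, as without it, and of all genes 0 passed instead of 8. Leaving out the lowest 50% of probe sets removed Scnn1b and Scnn1g. The median SD ratio and the count of 8 members with hBD-2 1 and hBD-2 3 on top kept within 1.5 times under centring and repeated quantile normalization. Averaging probe sets could not change either, since every member had 1 probe set. For the count, these settings were added after the data were seen.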
